A study of Mus musculus with 6 samples.

Results

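Macrophages sorted from the mouse pancreas were compared between day 4 and day 3 after caerulein, a peptide whose repeated injection causes acute pancreatitis. The comparison used 2 of the 6 libraries of the series, the day 4 library and the day 3 library, each named from its sample title. Of the 31617 genes in the table, the 10000 most abundant by their mean across the libraries were taken; the last gene inside and the first outside both had a mean normalised read count of 74.1. All mice were wild type Balb/c. Those of days 1, 3, 4, 5 and 7 had received 10 intraperitoneal injections of caerulein, 1 each hour, after a night without food, and the mock mice, taken as day 0, had received saline. Leukocytes were enriched with beads and cells carrying CD45, CD11b and F4/80 were sorted as macrophages. Each library was a pool from more than 3 mice and each day has 1 library, so no difference below has a replicate check and none carries a p-value. Day 4 appears in the sample labels only, while the design text lists days 1, 3, 5 and 7.

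Macrophages of injured tissue can come from monocytes that arrive from the blood or from resident cells that divide in place. A dividing cell first licenses its replication origins, then copies its DNA in S phase with the MCM helicase, polymerases and newly made deoxynucleotides, and then enters mitosis under cyclin B and Cdk1. MHC class II molecules, alpha and beta chains that pair on the invariant chain Cd74, carry peptides from the endosome to CD4 T cells. The peptide editor H2-DM loads them, H2-DO restrains H2-DM, and the coactivator Ciita drives the transcription of the whole set.

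The 2 libraries held 25726455 reads (day 3) and 14853084 reads (day 4), and the other libraries 16200131 to 17905449. Levels below are normalised read counts as deposited, and all ratios are day 4 over day 3 on the log2 scale after adding 17.8 to each level, so the ratios of low genes are understated. The 95% intervals are exact (Clopper-Pearson) for the ratio of reads without the added value and cover counting error only, not mouse or handling differences. For the median gene the interval reached 0.19 on the log2 scale to either side. A count of 0 allows a level of up to 2.11 on day 3 and 3.88 on day 4.

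At least a 2-fold difference was seen in 323 genes that were higher on day 4 and 589 that were lower, which is 3.23% and 5.89% of the 10000, or 9.12% in either direction. The counting interval, explained above, lay wholly past 2-fold upward in 244 genes and downward in 468. At 4-fold there were 47 higher and 211 lower genes, 0.47% and 2.11%. The median gene stood at -0.08, and the middle of the distribution, from the 5th to the 95th percentile, ran from -1.11 to 0.84. Centring the libraries on their median gene moved that median by over 0.1, to 0.04, and changed the balance to 448 higher and 487 lower genes, so that the higher genes made up 47.9% of those past 2-fold in place of 35.4%. After quantile normalisation there were 418 and 492. Equal column totals moved the balance the other way, to 275 and 671 (29.1% higher), and TMM factors on the recovered reads to 298 and 630 (32.1%). The 2 ends of the distribution held different kinds of genes. They were ranked without predicted genes, small RNAs, pseudogenes and receptor segments, which also left out the class II gene H2-Ea-ps (2.39). Of the 100 lowest ratios so ranked, 68 belonged to genes of the division lists, which hold 187 of the 10000 genes. Another 13 belonged to markers of other cell types, which hold 122. None of the division genes was among the 100 highest so ranked. There stood 8 genes of the class II lists and 8 of the 28 genes of the alternative activation list. The class II lists also cover transactivation, endosomal processing and costimulation, and the 8 genes included the costimulation gene Cd83 (1.53).

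**Figure D1:**
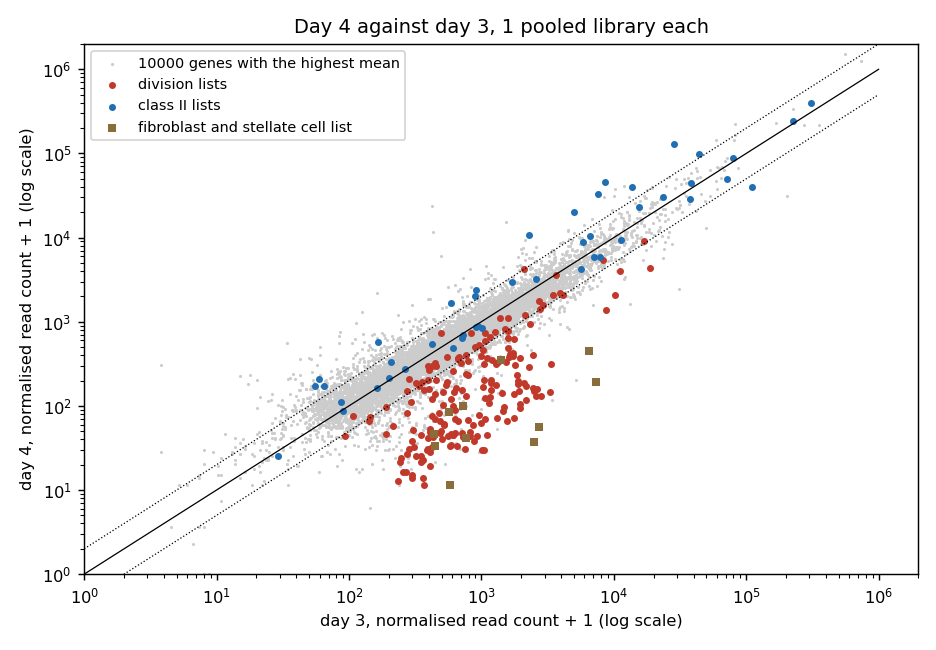
Each point is a gene, with its level on day 3 (horizontal, normalised read count plus 1, log scale) against day 4 (vertical, same unit); the solid line marks equal levels and the dotted lines 2-fold differences. Division genes (red) and fibroblast markers (brown squares) were at least 2-fold lower by the ratio used here in 144 of 187 and 11 of 11 cases, and of the class II lists (blue) the chains and chaperones lie above the diagonal.

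The sorted cells carried the transcripts of the sort on both days. Adgre1, which encodes F4/80, stood at 12632 on day 3 and 11541 on day 4. Ptprc, the gene of CD45, stood at 7282 and 9425. Itgam, the gene of CD11b, was 2-fold lower on day 4, at 678 against 1409 (-1.04). Of 21 core macrophage genes 18 had a ratio above 0, with a median of 0.42, and 1 was at least 2-fold higher, Ms4a7 at 1.05.

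Genes that copy DNA and divide the cell were lower on day 4 throughout the cycle. Of 258 such genes listed 187 were among the 10000, and of these 144 were at least 2-fold lower and 1 at least 2-fold higher, with a median ratio of -2.45 against -0.08 for all 10000 genes. Without the filter on low genes the median over all 258 was -2.01. In 175 of the 187 genes day 3 was the highest of the 6 libraries, 183 stood above mock on day 3 and 173 stood below mock on day 4. For most of these genes day 4 thus lay under the mock library and not between it and day 3. How many of all 10000 genes were highest or lowest in a given library, or above or below mock, was not counted. Such counts, here and for the lists below, therefore have no share over all genes beside them. The division genes together took 1.47% of all normalised reads on day 3 and 0.421% on day 4, beside 0.801% in mock, 0.439% on day 1, 0.429% on day 5 and 0.541% on day 7. In a sorted bulk sample, fewer dividing cells and less of these RNAs per cell cannot be told apart.

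Origin licensing and the replication fork formed the first group, with 33 of 41 genes at least 2-fold lower and a median of -1.96. Mcm2 to Mcm7, the 6 subunits of the helicase that opens the DNA, lay between -3.79 and -1.95. Mcm5 had 2462 on day 3 and 162 on day 4, beside 1337, 479, 446 and 709 in mock and on days 1, 5 and 7 (-3.79, interval -4.20 to -3.67). Mcm6 had 3330 on day 3 and 314 on day 4, beside 1939, 482, 593 and 792 in the others (-3.33). Mcm2 had 1297 on day 3 and 177 on day 4, beside 945, 453, 428 and 742 in the others (-2.75). In these 3 genes day 3 was the highest of the 6 libraries and day 4 the lowest. Mcm3 went from 1726 to 428 (-1.97), Mcm4 from 1328 to 331 (-1.95) and Mcm7 from 2272 to 285 (-2.92). Uhrf1, which maintains DNA methylation behind the fork, had the lowest ratio of the group at -3.96. Pcna, the sliding clamp, which also serves DNA repair, differed less: it had 3953 on day 3 and 2187 on day 4, beside 2696, 2435, 1544 and 933 in mock and on days 1, 5 and 7 (-0.85). Rfc1, the large subunit of the clamp loader, stood at 831 and 735 (-0.17), the smallest difference among the 41.

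Nucleotide synthesis had 8 of 16 genes at least 2-fold lower and a median of -0.98. The lowest ratios were those of enzymes that make or salvage deoxynucleotides. Rrm2, the small subunit of ribonucleotide reductase that is made in S phase, had 2818 on day 3 and 131 on day 4, beside 769, 144, 192 and 396 in mock and on days 1, 5 and 7 (-4.26, interval -4.73 to -4.15). Tk1, thymidine kinase, went from 2564 to 129 (-4.13), and Tyms, thymidylate synthase, from 1425 to 141 (-3.18). The enzymes named next, which make purines for RNA as well as DNA, differed by less than 2-fold. Paics stood at -0.73, Impdh2 at -0.75, Ppat at -0.80 and Gart at -0.81.

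Cyclins and their kinases came next, with 13 of 16 genes at least 2-fold lower and a median of -2.98. Ccna2, the cyclin of S phase and early mitosis, had 1747 on day 3 and 69.9 on day 4, beside 541, 45.5, 63.4 and 227 in mock and on days 1, 5 and 7 (-4.33). Ccnb1, the mitotic cyclin, had 1971 on day 3 and 104 on day 4, beside 413, 46.8, 72.8 and 187 in the others (-4.04, interval -4.59 to -3.93). Cdk1, the kinase it activates, had 2159 on day 3 and 171 on day 4, beside 512, 83.7, 167 and 185 in the others (-3.53). For these 3 genes day 3 stood above every other library, and day 4 lay below mock. Foxm1, a transcription factor of the mitotic program, went from 254 to 15.5 (-3.03), and Mybl2, a partner in the same program, from 244 to 20.7 (-2.77). E2f1 and Cdk2 differed by less than 2-fold, at -0.85 and -0.83, as did the phosphatase gene Cdc25a at -0.40.

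Mitosis had the lowest medians among the division lists, beside the cyclins. The mitotic kinases and the anaphase switch stood at -3.28 with 20 of 24 genes at least 2-fold lower, the spindle motors and cytokinesis factors at -3.11 with 29 of 31, and the kinetochore at -2.90 with 19 of 21. Ndc80, which ties the kinetochore to microtubules, went from 1045 to 28.5 (-4.52), the lowest ratio among the genes of the division lists. Birc5, a subunit of the chromosomal passenger complex, went from 3281 to 146 (-4.33). Plk1, the Polo kinase, went from 823 to 42.7 (-3.80). Among the spindle genes Fam64a stood at -4.48, Nusap1, a microtubule bundler, at -4.26, and Prc1, which builds the central spindle, at -4.01. Cenpa, the histone variant that marks the centromere, differed less, at 2905 and 1566 (-0.88), and on day 4 it stood above its mock level of 1263.

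Chromosome structure genes had a median of -1.69, with 16 of 23 at least 2-fold lower. Top2a, the topoisomerase that untangles sister chromatids, had 1952 on day 3 and 94.5 on day 4, beside 649, 91.1, 150 and 365 in mock and on days 1, 5 and 7 (-4.13, interval -4.72 to -4.03). Mki67, which coats mitotic chromosomes and serves as the usual marker of cycling cells, had 1527 on day 3 and 330 on day 4, beside 738, 77.5, 150 and 361 in the others (-2.15). Both were highest on day 3, and Mki67 differed less than Top2a. The condensin subunit gene Ncapg stood at -3.56. Cohesin genes, which also act outside division, stood at -0.80 (Smc1a), -0.40 (Rad21) and -0.33 (Smc3). Genes of DNA repair in S phase had 5 of 12 members at least 2-fold lower and a median of -0.90, with the lowest ratio in Rad54l at -3.34.

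Replication-dependent histones were mostly outside the 10000 genes, with 3 of 42 inside. Hist1h1c, a linker histone, had 2109 on day 3 and 4248 on day 4, beside 2075, 1109, 1308 and 978 in mock and on days 1, 5 and 7 (1.00). It was the only gene of the division lists past 2-fold upward. Hist1h2bc stood at 0.57 and Hist1h1e at -1.29. The median of this group, 0.57, changed sign to -0.23 when all genes of the table were used, and histone genes are near-identical copies whose reads may have been split between them.

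**Figure D2:**
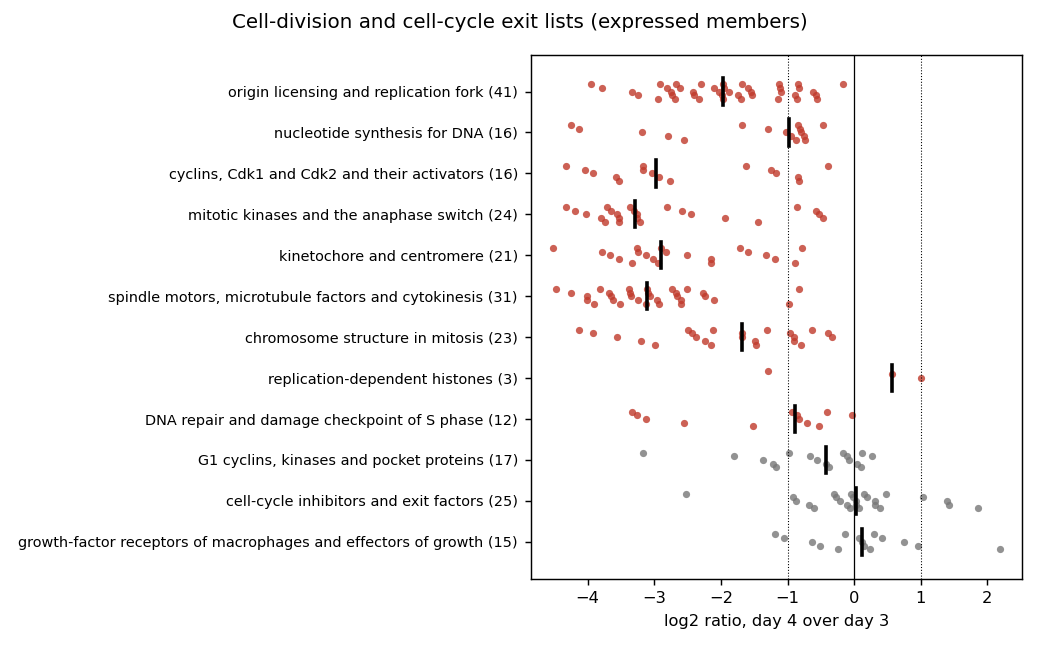
Each point is a gene, placed by its log2 ratio of day 4 over day 3, in rows for the lists of division (red) and of growth and cell-cycle exit (grey), with the number of genes in brackets, the median as a thick bar and dotted lines at 2-fold. The medians of the mitotic kinases (-3.28) and the cyclins (-2.98) lie far to the left, and that of the exit factors (0.03) lies at 0.

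Promoters of 3 of these genes are shown because the mitotic genes moved together and share short motifs. The sequences are from RefSeq on build GRCm38.p6, 150 bases before to 20 bases after the start, 5′ to 3′ on the strand of the gene, with capitals for CCAAT, for TTTGAA (the core of the cell cycle homology region), and for TTTNNCGC (an E2F-type motif), each searched on both strands, so that ATTGG and TTCAAA are the opposite-strand readings of the first 2. They lie at chr9:70421535-70421704 (minus strand, Ccnb2), chr10:69352893-69353062 (minus strand, Cdk1) and chr11:99024170-99024339 (minus strand, Top2a).
Ccnb2: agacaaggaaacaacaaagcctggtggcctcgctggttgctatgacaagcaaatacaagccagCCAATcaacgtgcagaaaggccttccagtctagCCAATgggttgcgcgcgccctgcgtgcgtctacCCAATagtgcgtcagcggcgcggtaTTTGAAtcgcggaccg
Cdk1: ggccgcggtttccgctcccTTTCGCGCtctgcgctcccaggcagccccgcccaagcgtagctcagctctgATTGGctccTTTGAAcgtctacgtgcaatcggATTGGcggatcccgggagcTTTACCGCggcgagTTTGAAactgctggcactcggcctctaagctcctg
Top2a: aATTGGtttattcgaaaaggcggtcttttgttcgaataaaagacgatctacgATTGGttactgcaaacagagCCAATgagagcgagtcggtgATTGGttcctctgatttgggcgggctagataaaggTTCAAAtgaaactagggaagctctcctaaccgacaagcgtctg
In Ccnb2, CCAAT begins 87, 54 and 21 bases upstream of the start and TTTGAA lies just after the start. In Cdk1 there are 2 copies of each of the 3 motifs. In Top2a there are 4 CCAAT matches and 1 TTTGAA match.

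Over windows of 250 bases before to 50 after the start, TTTGAA was present in 47 of 81 promoters of the mitosis lists (58.0%; 76 of 89 genes matched to the RefSeq table) and in 17.9% of all 32851 promoters of the same length. In the licensing and fork list it was present in 6 of 43 (14.0%). Over the same windows TTTNNCGC gave the other order, with 18 of 43 promoters of the licensing and fork list (41.9%), 14.8% of the mitosis lists and 5.17% of all promoters. CCAAT was present in 67.9% of the mitosis promoters, 60.5% of the licensing and fork promoters and 37.4% of all. Within 100 bases upstream of the start the 2 groups hardly differed in TTTNNCGC, at 11.6% (licensing and fork) and 11.1% (mitosis) beside 1.98% of all. TTTGAA was present there in 21.0% of the mitosis promoters, 4.65% of the licensing and fork promoters and 5.95% of all. A match describes letters in a window; it is no evidence of a bound factor, and no match says only that these letters are not in the window.

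Genes that let a cell enter the cycle had ratios nearer to 0. Of 17 genes of G1, the phase before S, 5 were at least 2-fold lower and 0 higher, with a median of -0.43. Ccnd1, cyclin D1, had 1388 on day 3 and 387 on day 4, beside 1429, 1456, 1025 and 897 in mock and on days 1, 5 and 7 (-1.80, interval -2.02 to -1.67). Day 4 was its lowest library, and unlike the S phase and mitotic genes it was not higher on day 3 than in mock. Ccnd3 went from 1833 to 800 (-1.18), and Ccnd2 stood at 504 and 445 (-0.17). Mxd3, a partner of Max known for expression in S phase, stood at -3.17.

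Inhibitors of the cycle did not move as a group. Their median was 0.03, which changed sign under other scalings, with 4 of 25 genes at least 2-fold higher and 1 lower. Cdkn1a, the gene of p21, had 13655 on day 3 and 11829 on day 4, beside 8927, 15337, 6792 and 2998 in mock and on days 1, 5 and 7 (-0.21), so it was high on both days. Cdkn2c, an inhibitor of Cdk4 and Cdk6, had 1219 on day 3 and 197 on day 4, beside 299, 38.1, 126 and 151 in the others (-2.53). The antiproliferative gene Btg2 had 8390 on day 3 and 30400 on day 4, beside 13477, 14295, 22662 and 15990 in the others (1.86). Btg2 was highest on day 4 and lowest on day 3. Klf4 and Klf2, transcription factors linked to quiescence, stood at 1.42 and 1.39, and Cdkn1c, the gene of p57, at 1.03. Among growth-factor genes of macrophages, Csf1r, the receptor for the growth factor CSF1, stood at 23811 and 31779 (0.42), and Il4ra, which carries the signal of interleukin 4, at 2423 and 1162 (-1.05). Igf1, a growth factor that macrophages secrete, had 554 on day 3 and 2596 on day 4, beside 647, 206, 922 and 753 in mock and on days 1, 5 and 7 (2.19), with day 4 above every other library.

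Markers of fibroblasts, duct cells and acinar cells were lower on day 4 beside the division genes. All 11 fibroblast and stellate cell markers among the 10000, of 20 in the table, were at least 2-fold lower, with a median of -3.76 (-5.14 among the 6000 most abundant genes and -2.57 over all 20) and a summed level of 24913 on day 3 and 1536 on day 4, beside 4829, 996, 3086 and 11711 in mock and on days 1, 5 and 7. Col1a1, a chain of collagen I, had 2512 on day 3 and 36.2 on day 4, beside 183, 43.1, 135 and 721 in the others (-5.55), the lowest ratio of all 10000 genes; Col1a2 stood at -5.22 and Col3a1 at -5.14. All 7 duct cell markers that passed the filter, of 14, were also at least 2-fold lower (-2.51), among them Krt19, a keratin of duct epithelium, at 521 and 40.1. Their sum, 237436 on day 3 and 34372 on day 4, was mostly Spp1, which macrophages also make. Acinar digestive enzymes were lower in 16 of 25 genes (-1.35), with a sum of 197329 and 71196 beside 972182 in mock and 1149171 on day 7. The 3 haemoglobin or red-cell genes that passed, of 8, were lower, as Hba-a1 at 1328 and 140, with a median of -3.09 (-1.40 without the filter). The islet hormone gene Gcg, the 1 islet marker of 9 that passed, stood at 696 and 51.8 (-3.36). The filter used the mean over all 6 libraries, so a marker low elsewhere could pass through a high day 3 level. Day 3 was the highest library for 9 of the 11 fibroblast, 6 of the 7 duct, all 3 red-cell and the 1 islet markers that passed. Sums over all listed members do not depend on the filter. Endothelial markers did not move as a group: of 4 that passed, 1 was at least 2-fold lower, with a median of -0.32. That gene was Plvap, of fenestrated endothelium, at 555 and 33.6 (-3.48). No fibroblast, duct or acinar marker was at 0 reads on either day. Fibroblast and duct markers thus had their highest sum on day 3, as the division genes did, while acinar markers did not, and the part of these cells in the division result was not tested. Leaving out all genes of the other-cell lists and of the mitochondrial genome changed the counts to 306 higher and 544 lower genes.

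MHC class II genes were higher on day 4. Of the chains, chaperones and peptide editors with Ciita, 11 of 12 passed the filter and 10 were at least 2-fold higher, with a median of 1.69 against -0.08 for all genes. Their summed level was 59750 on day 3 and 253215 on day 4, beside 229297, 41799, 239310 and 341493 in mock and on days 1, 5 and 7, or 0.33% of the library on day 3 and 1.32% on day 4. All 11 were below mock on day 3 and 4 were below mock on day 4. Mock, day 5 and day 7 lay with day 4 in this sum, and day 1 lay with day 3.

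The 4 chains stood between 1.99 and 2.39. H2-Aa, the alpha chain of I-A, had 2285 on day 3 and 10756 on day 4, beside 7739, 1210, 8325 and 10431 in mock and on days 1, 5 and 7 (2.23, interval 2.18 to 2.29). H2-Ab1, its beta chain, had 5005 on day 3 and 19948 on day 4, beside 15814, 2876, 17203 and 24781 in the others (1.99). H2-Eb1, the beta chain of I-E, had 7533 on day 3 and 32918 on day 4, beside 28260, 5601, 27615 and 41021 in the others (2.12). Days 1 and 3 were the lowest libraries of each chain and did not reach the range of the other 4. The gene listed as H2-Ea-ps, 37039 in mock, 8625 on day 3 and 45300 on day 4 (2.39), is named for its state in the reference strain, whose haplotype lacks a working I-E alpha chain; Balb/c mice carry a working copy. Reads of these related chains may be shared between genes. H2-Eb2 had 3 reads on day 3 and 2 on day 4 and was below the filter.

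Cd74, the invariant chain, had 28677 on day 3 and 130870 on day 4, beside 124549, 20774, 136059 and 197319 in mock and on days 1, 5 and 7 (2.19). The editors differed less. H2-DMa, the alpha chain of H2-DM, had 5858 on day 3 and 8795 on day 4, beside 9677, 4467, 8413 and 7933 in the others (0.58), the one gene of the set under 2-fold, while the beta chain genes H2-DMb1 and H2-DMb2 stood at 1.46 and 1.16. H2-Oa and H2-Ob, the chains of H2-DO, were far less abundant in these counts, at 54.2 and 58.5 on day 3 and 173 and 210 on day 4 (1.41 and 1.58). Ciita had 163 on day 3 and 567 on day 4, beside 540, 80.0, 512 and 1207 in the others (1.69, interval 1.56 to 2.03), and like the chains it was lowest on day 1 and next lowest on day 3. The factors that Ciita works through, Rfx5, Rfxank, Rfxap and the NF-Y subunits, stayed between -0.31 and 0.31, and the median of the whole transactivation list, -0.02, changed sign under other scalings. In that list Irf4 was the other gene past 2-fold, at 1.22.

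**Figure D3:**
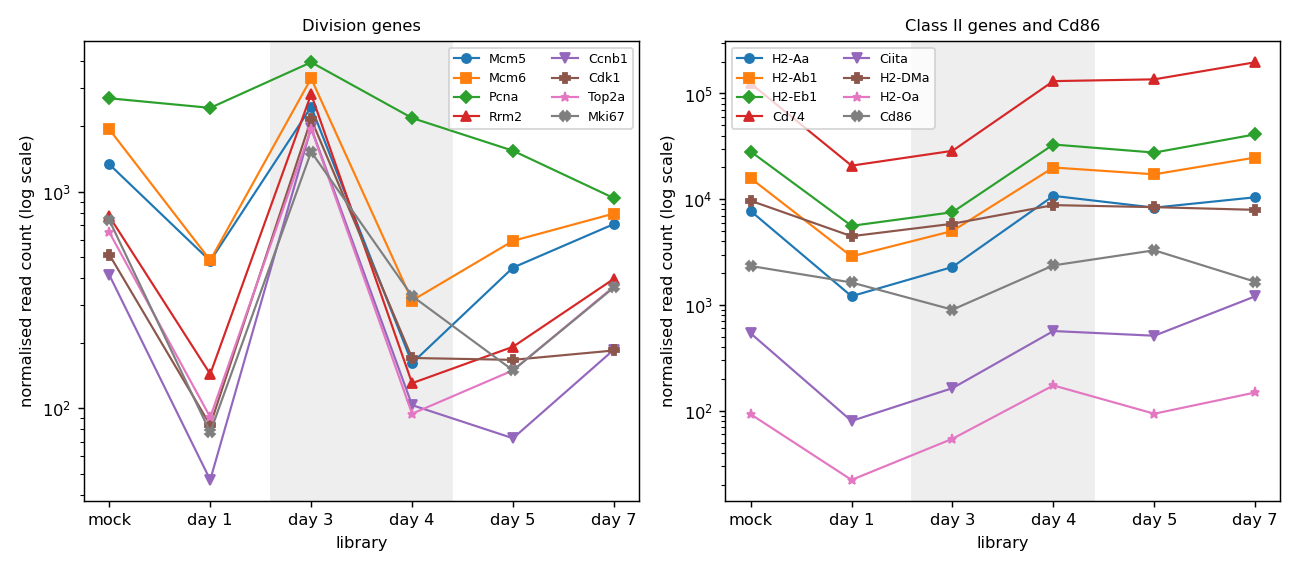
Levels (normalised read count, log scale) of 8 division genes (left) and of 7 class II genes with Cd86 (right) in the 6 libraries, 1 pooled library each, with days 3 and 4 shaded and lines joining libraries as a guide. Division genes peak on day 3 and class II genes are low on days 1 and 3, with Ciita at 163 on day 3 and 567 on day 4.

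Class II promoters are shown because the set moved together and is known for a shared X and Y box. The sequences are from RefSeq on build GRCm38.p6, 150 bases before to 20 after the start, 5′ to 3′ on the strand of the gene, with capitals for CCAAT (the Y box, read ATTGG on the opposite strand) and CCNNGNNAC (an X-box core), both strands searched. They lie at chr17:34287804-34287973 (minus strand, H2-Aa), chr17:34305717-34305886 (plus strand, H2-Eb1), chr17:34153041-34153210 (plus strand, H2-DMb1) and chr17:34238755-34238924 (plus strand, H2-Ob).
H2-Aa: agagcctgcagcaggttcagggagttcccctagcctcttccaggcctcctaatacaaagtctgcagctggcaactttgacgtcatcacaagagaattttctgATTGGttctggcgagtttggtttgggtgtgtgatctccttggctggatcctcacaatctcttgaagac
H2-Eb1: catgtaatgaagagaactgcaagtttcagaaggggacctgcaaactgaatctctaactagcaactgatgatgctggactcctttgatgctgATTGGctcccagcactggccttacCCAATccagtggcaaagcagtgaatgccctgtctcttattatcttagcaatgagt
H2-DMb1: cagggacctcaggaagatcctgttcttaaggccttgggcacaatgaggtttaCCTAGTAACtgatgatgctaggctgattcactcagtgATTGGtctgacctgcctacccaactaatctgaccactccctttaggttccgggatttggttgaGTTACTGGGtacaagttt
H2-Ob: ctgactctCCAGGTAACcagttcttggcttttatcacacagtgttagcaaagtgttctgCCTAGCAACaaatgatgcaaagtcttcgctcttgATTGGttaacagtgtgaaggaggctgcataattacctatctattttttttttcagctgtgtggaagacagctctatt
An ATTGG begins 48 bases upstream of the start in H2-Aa, 59 in H2-Eb1, 61 in H2-DMb1 and 57 in H2-Ob. The X-box core had no match in the sequences shown for H2-Aa and H2-Eb1. It begins 98 bases upstream in H2-DMb1, with another match after the start, and 142 and 91 bases upstream in H2-Ob. Within 100 bases upstream of the start CCAAT was present in 7 of 9 promoters of the class II chains and chaperones (77.8%; 8 of 11 genes matched) and in 19.3% of all 32851 promoters. The X-box core was present there in 55.6% and 21.1%. Over the longer windows used for the division genes the shares were 88.9% against 37.4% for CCAAT and 66.7% against 47.4% for the X-box core. TTTGAA and TTTNNCGC were found in 0 of the 9. As above, a match is a description of letters.

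Other steps of antigen presentation did not follow the class II chains as a group. Of 12 endosomal processing genes 1 was at least 2-fold higher and 1 lower, with a median of 0.19. Ctsc, a protease that activates granule enzymes, had 111505 on day 3 and 39760 on day 4, beside 51868, 83860, 47716 and 29320 in mock and on days 1, 5 and 7 (-1.49), and Cst3, a protease inhibitor, stood at 1.15. Of 11 costimulation genes 2 were at least 2-fold higher, Cd86 at 902 and 2367 (1.37) and Cd83, which stabilises class II on the surface, at 1.53; the median of 0.08 changed sign under other scalings. Of 21 class I and peptide loading genes 0 were higher and 2 lower, the chaperones Calr at -1.34 and Pdia3 at -1.16, with a median of 0.22.

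Markers of other immune cells, among them dendritic and B cells, which carry class II, were partly higher as well. Of the 15 dendritic cell markers 14 passed the filter, 5 were at least 2-fold higher and 1 lower (-1.40). Their sum was 17432 on day 3 and 27464 on day 4 beside 20240 in mock. That sum includes Irf8, at 6635 on day 3 and 10352 on day 4. Irf8 and Irf4 are also in the transactivation list and Sirpa is also in the core macrophage list, so the sum is not of dendritic cells alone. Cd209a, a lectin of monocyte-derived dendritic cells, had 823 on day 3 and 4184 on day 4, beside 1761, 145, 973 and 3814 in mock and on days 1, 5 and 7 (2.32), and Flt3, the growth-factor receptor of dendritic cells, stood at 173 and 490 (1.42). Zbtb46, a defining transcription factor, stood at 63.4 and 129 (0.86), and Itgax at 0.32. Of 17 B cell markers 14 passed and 3 were at least 2-fold higher, with a sum of 11003 and 15257. Cd79a, a part of the B cell receptor, was low on both days, at 51.4 and 99.6 beside 2020 in mock. Of 17 T cell markers 15 passed, 4 were at least 2-fold higher and 0 lower, with a median of 0.91 and a sum of 806 and 1894. They were led by Cd4, at 33.8 and 208 (2.13), and Il7r, at 127 and 365 (1.40), while Cd3e, the defining gene, stood at 53.5 and 91.9 (0.62). Neutrophil markers had 1 of 10 at least 2-fold higher and 1 lower, and NK cell markers 1 of 8 higher, with a sum of 354 and 788. No dendritic, B or T cell marker was at 0 reads on either day. The part of these cells in the class II result was not tested.

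Genes of alternative activation, the state induced by interleukin 4 and linked to repair, split in both directions. Of 30 genes 28 passed the filter, 15 were at least 2-fold higher and 4 lower, with a median of 1.03, and 0.37 among the 6000 highest genes. Retnla, a secreted protein of this state, had 162 on day 3 and 2197 on day 4, beside 6038, 881, 3041 and 6402 in mock and on days 1, 5 and 7 (3.62, interval 3.56 to 3.97). Pla2g2d, a secreted phospholipase, had 2.82 on day 3 and 301 on day 4, beside 207, 20.9, 535 and 634 in the others (3.96). On day 3 it rested on 4 reads, and the interval of its ratio was 5.37 to 8.63. Mgl2 stood at 2.34, Hpgd, which inactivates prostaglandins, at 2.10, Pparg at 1.73 and Clec10a at 1.54. Most of these were below mock on day 3, as 21 of the 28 were, and 18 were below mock on day 4.

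Arg1, the arginase most often used to mark the same state, went the other way. It had 5194 on day 3 and 203 on day 4, beside 4691, 3934, 115 and 278 in mock and on days 1, 5 and 7 (-4.56, interval -4.91 to -4.45). Its last 3 libraries stood together and far below the first 3. Chil3, a chitinase-like protein that monocytes also make, stood at 6937 and 1593 (-2.11), and Il10, an anti-inflammatory cytokine, at -1.14. The wider arginine and polyamine list had 1 of 14 genes at least 2-fold higher and 2 lower.

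Genes of monocytes were lower, with 10 of 17 at least 2-fold lower, 0 higher and a median of -1.04. Fn1, fibronectin, stood at 13266 on day 3 and 1625 on day 4 (-3.02), Vcan, a proteoglycan, at 221 and 23.3 (-2.54), and Hp, haptoglobin, at -2.08. Fibroblasts make Fn1 and Vcan too. Genes of resident macrophages had 2 of 16 at least 2-fold higher and 2 lower, with a median of 0.04 that changed sign under other scalings. Lyve1, a hyaluronan receptor, had 675 on day 3 and 122 on day 4, beside 6005, 730, 621 and 1779 in mock and on days 1, 5 and 7 (-2.31). Sepp1, the plasma selenoprotein gene, stood at 81738 and 222588 (1.45). Resident markers thus did not move together.

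Lipid handling genes had 5 of 22 at least 2-fold higher and 2 lower, with a median of 0.51, and 11 of the 22 were highest on day 4. Apoe, which carries lipid out of macrophages, had 561567 on day 3 and 1508859 on day 4, beside 222184, 168971, 1420534 and 577517 in mock and on days 1, 5 and 7 (1.43). Spp1, osteopontin, stood at 202196 and 31164 (-2.70), and it was highest on day 3. Gpnmb, a lysosomal membrane protein, stood at 1.10, Abcg1, a cholesterol exporter, at 1.36 and Fabp5, a fatty acid carrier, at 1.31. All 19 cholesterol synthesis genes had ratios below 0, with 5 at least 2-fold lower and a median of -0.61, and day 4 was the lowest library in 13 of them. Sqle, squalene epoxidase, stood at -1.62 and Stard4, a sterol carrier, at -1.57.

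Glycolysis genes were lower in 4 of 22 cases and higher in 0, with a median of -0.57. Pkm, pyruvate kinase, stood at 23839 and 7409 (-1.68), Pgk1 at -1.49, Gapdh at 24425 and 8858 (-1.46) and Eno1 at -1.28. The unfolded protein response had 8 of 20 genes at least 2-fold lower and a median of -0.78. Nuclear genes of the respiratory chain, 30 in number, were all below 0 with a median of -0.49, and 0 passed 2-fold. Heat shock genes had 1 of 16 lower, Hspb1 at -1.99. Ribosomal protein genes had a median of -0.35 and 0 of 30 past 2-fold. Day 3 was the highest library for 24 of the respiratory genes and 27 of the ribosomal protein genes.

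The medians of the inflammatory lists, those of interferon-induced genes, cytokines and chemokines, lay between 0.06 and 0.24. Of 29 interferon-induced genes 0 passed 2-fold in either direction, with a median of 0.06 that changed sign under other scalings, and all 29 were below mock on both days. Of 19 inflammatory cytokine and NF-kB feedback genes 1 was at least 2-fold lower. Among 20 chemokines 3 were at least 2-fold higher, Ccl3 at 1.80, Ccl22 at 1.12 and Ccl4 at 1.01, and Cxcl14 was lower at -1.68. Over all 10000 genes the shares past 2-fold were 3.23% higher and 5.89% lower. Repair growth factors had 4 of 15 at least 2-fold higher and 0 lower, with a median of 0.24 that changed sign under other settings. Gdf15, a stress-induced cytokine, went from 232 to 1190 (2.27), and Pdgfc and Pdgfb, ligands for fibroblast receptors, stood at 1.37 and 1.12. Of 18 genes for the uptake of dying cells 2 were higher, Axl, a receptor kinase for dying cells, at 662 and 2310 (1.78) and Cd300a, an inhibitory receptor, at 1.60. Timp1, an inhibitor of matrix proteases that fibroblasts also make, stood at 1311 and 51.8 (-4.26).

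**Figure D4:**
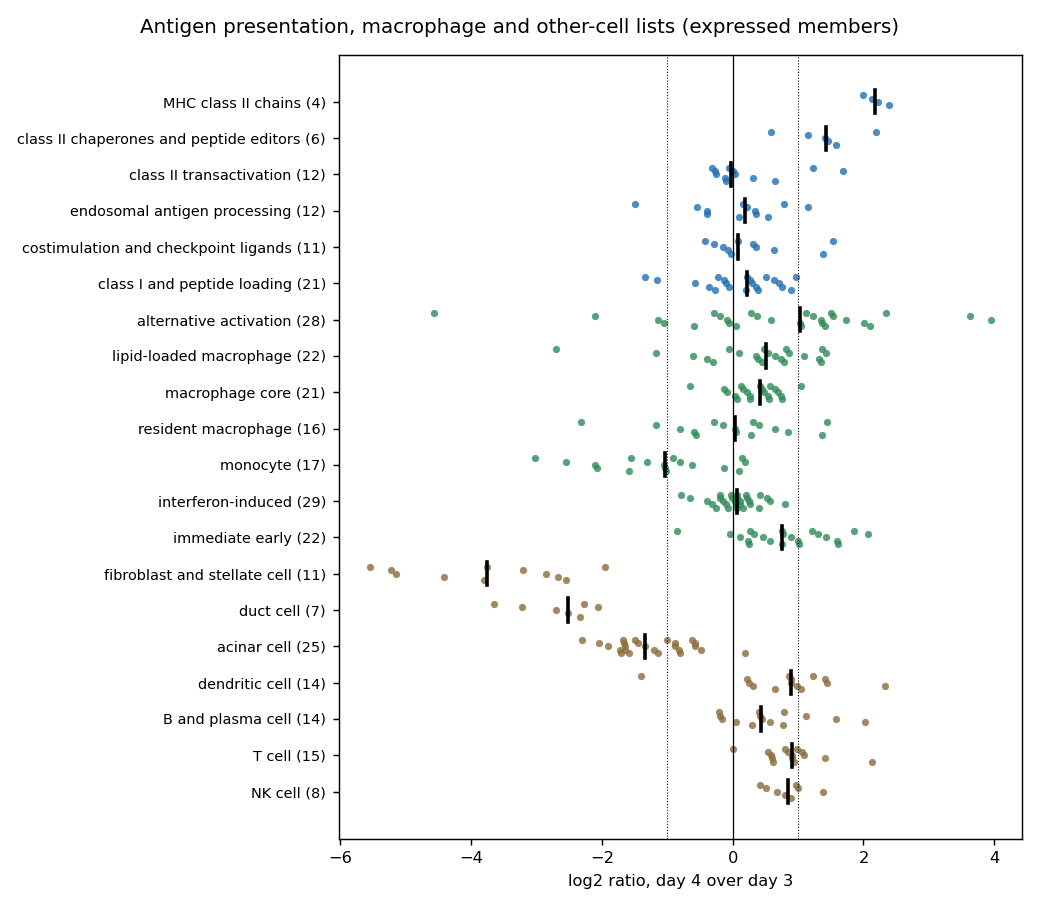
Each point is a gene, placed by its log2 ratio of day 4 over day 3, in rows for lists of antigen presentation (blue), macrophage states (green) and other cells (brown), with the number of genes in brackets, the median as a thick bar and dotted lines at 2-fold. Class II chains (2.18) and fibroblast markers (-3.76) have the most distant medians, and interferon-induced genes (0.06) all lie between the dotted lines.

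The genes with the highest ratios belonged to few of these lists. Cd28, a costimulatory receptor known from T cells, had 125 on day 3 and 1307 on day 4, beside 294, 67.7, 358 and 337 in mock and on days 1, 5 and 7 (3.21), with day 4 apart from the other libraries. T cell markers, given above, were higher on day 4 in 4 of 15 cases by 2-fold, and their part in the level of Cd28 was not tested. Fxyd2, a regulator of the sodium pump, stood at 33.1 and 560 (3.51), P3h2, a collagen hydroxylase, at 14.1 and 225 (2.93), and Samd4, an RNA-binding protein, at 2.57. Cd209b, a lectin with close relatives in the genome, stood at 16.9 and 232 (2.85). Spic, the transcription factor of macrophages that recycle red cells, stood at 50.7 and 357 (2.45), and Atp6v0d2, a subunit of the lysosomal proton pump, at 83.1 and 555 (2.51).

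**Figure D5:**
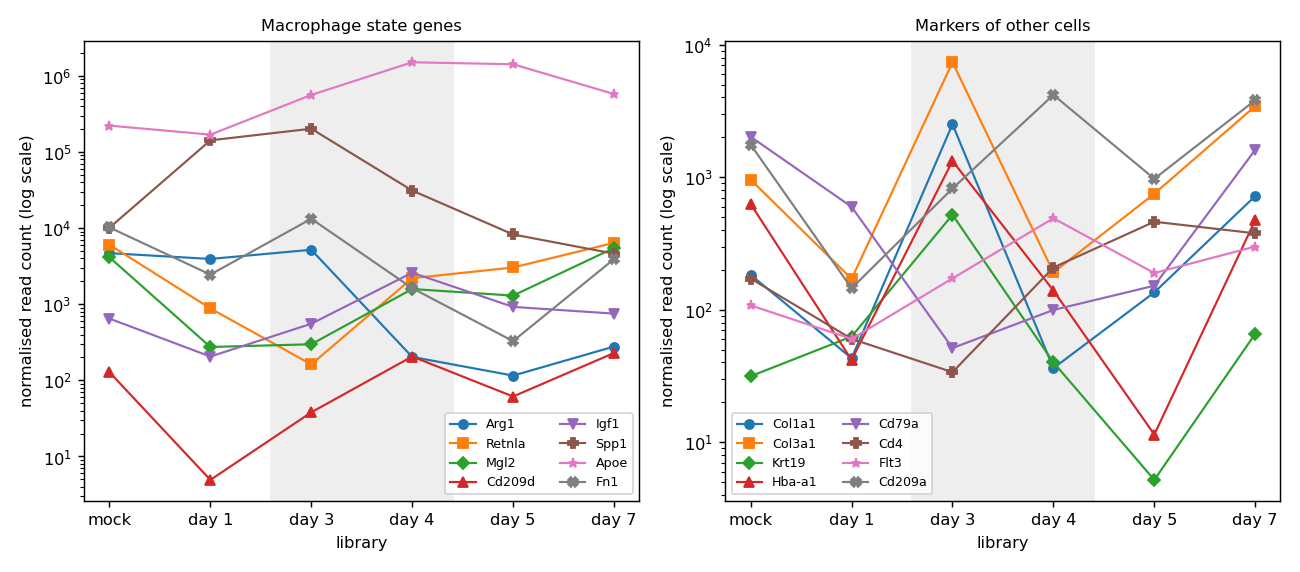
Levels (normalised read count, log scale) of 8 macrophage genes (left) and 8 markers of other cells (right) in the 6 libraries, 1 pooled library each, with days 3 and 4 shaded and lines joining libraries as a guide. Arg1 drops from 5194 to 203 and Col1a1 from 2512 to 36.2 between days 3 and 4, while Retnla rises from 162 to 2197 and Cd209a from 823 to 4184.

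Immediate early and ribosomal RNA genes also differed between the libraries. Immediate early genes, which are known to respond to cell isolation as well as to signals in the tissue, had 9 of 22 at least 2-fold higher and 0 lower, with a median of 0.76, and 13 of them were highest on day 4. Egr2 stood at 1080 and 4570 (2.06) and Egr1 at 10095 and 30803 (1.61). Btg2, given above among the exit factors, belongs to this list as well. Lars2, whose locus is known to collect ribosomal RNA reads, had 420 on day 3 and 23516 on day 4, beside 13854, 15459, 7232 and 3952 in mock and on days 1, 5 and 7 (5.75), the highest ratio of all genes, and Gm15564 stood at 2.56. The mitochondrial ribosomal RNAs mt-Rnr1 and mt-Rnr2 stood at 0.92 and 0.36. These 4 genes belong to a list of which 5 passed the filter, and the remaining gene went the other way, at -0.96. Day 3 was apart from the other 5 libraries in Lars2, and the part of such RNA in the other ratios was not tested.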

How the data were processed

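The authors deposited a normalised signal per gene and library; its scaling, counter, annotation and strand setting were not given in the sources used here. The submitters' processing notes name Bowtie 0.12.2 and mm8. Low values in each column were whole multiples of 1 value, so whole reads could be recovered for 100% of values (tolerance 0.01 reads), which gave the depths and intervals. Of the 31617 gene identifiers, 99.4% were found in a reference list of mouse gene identifiers. The log2 ratio used a pseudocount of 17.8, 1 millionth of the mean column total. With 1 library a side no test could be made on these 2 libraries alone. Count tests on the recovered reads (edgeR 4.0.16, DESeq2 1.42.0), chosen after seeing the data, took their spread from mock and days 1, 5 and 7 treated as 1 group. Named genes were the 15 highest and 15 lowest ratios without predicted genes, small RNAs, pseudogenes and receptor segments, any member of the division, G1 and exit and class II lists, and up to 5 members of each other list with its defining markers. The lists and members were chosen with earlier results of these data known. Alternatives were other pseudocounts, filters, scalings and fold thresholds. Python 3.11.15 and pandas 2.3.3 were used, and the scripts were tested on simulated data. Some members of the lists are not reported here by name.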

Additional observations from a re-analysis of the deposited data

How the results depend on the processing

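Under the alternatives run, the medians of 8 lists changed sign, the 7 named above and that of matrix proteases (0.07), and no gene or list past 2-fold changed direction. Of 871 values for single lists and genes, 707 moved less than the tolerance, 164 moved and 0 reversed. The 323 higher genes became 189 with a pseudocount 5 times larger, 157 among the 6000 highest genes and 47 at 4-fold. The 589 lower genes became 276 among those 6000, 941 without a filter and 211 at 4-fold. The edgeR and DESeq2 tests on recovered reads of 14106 genes had 3 residual degrees of freedom. Each lone library was assumed to vary like the 4 pooled ones. That spread holds differences between days, as the summed interferon-induced genes stood at 63182 in mock and 309166 on day 1. The tests therefore cannot decide which genes differ between days 3 and 4, and their calls are not given. The division median of -2.45 became -1.81 with the larger pseudocount, -1.94 among the 6000 genes and -2.01 without a filter. The class II median of 1.69 became 1.82 with a pseudocount of 1, 1.38 with the larger one, 1.99 among the 6000 genes, 1.81 centred, 1.78 after quantile normalisation and 1.61 with equal column totals. Other list medians that moved by over 1.5 times were, with the larger pseudocount, those of the cyclins (-1.86), mitotic kinases (-2.35), kinetochore (-1.96), spindle (-2.23) and fibroblasts (-2.73). Among the 6000 genes they were those of the kinetochore (-0.88), fibroblasts (-5.14) and alternative activation (0.37), and without a filter those of the histones (-0.23), DNA repair (-1.51), fibroblasts (-2.57), eosinophils (0.37) and red-cell genes (-1.40). Leaving out a replicate was not possible with 1 library a day. No paired analysis was possible because each day has 1 library. Depth limits genes near the 3-read floor, such as Pla2g2d on day 3.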

Other observations

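Some genes of iron and red-cell handling, chosen after their values were seen, were higher on day 4 than on day 3 and others were not. Slc40a1, the iron exporter ferroportin, had 127 on day 3 and 709 on day 4, beside 595, 241, 352 and 750 in mock and on days 1, 5 and 7 (2.32). Epor, the erythropoietin receptor, stood at 41.6 on day 3 and 229 on day 4 (2.06). Both were near their mock levels on day 4. Less than 2-fold apart were Hmox1, which breaks down haem, at -0.09, Cd163, a haemoglobin receptor, at 0.04 and Ftl1, a ferritin chain, at 0.59.

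Eosinophils also carry CD11b and F4/80, and 3 of their 7 markers passed the filter, all at least 2-fold higher and highest of the 6 libraries on day 4. Ccr3, the eotaxin receptor, had 499 on day 3 and 1448 on day 4, beside 641, 61.5, 168 and 606 in mock and on days 1, 5 and 7 (1.50), Il5ra stood at 1.39 and Siglecf at 1.25. The 4 granule genes were below the filter and low on both days. Prg2 stood at 93.7 on day 3 and 46.6 on day 4, Ear6 at 9.86 and 3.88 (14 and 3 reads) and Epx, higher on day 4, at 4.93 and 11.6 (7 and 9 reads), while Ear1 had 3 and 0 reads. The part of eosinophils in the other ratios was not tested.

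Other genes of ribosomal RNA, left out of the named genes, stood beside Lars2. Gm23935 had 429 on day 3 and 11803 on day 4 (4.73), and Rn18s-rs5 497 and 6111 (3.57). Gm10800, a predicted gene also left out, set day 4 apart. It had 1528 on day 3 and 15221 on day 4, beside 1310, 1933, 830 and 1277 in mock and on days 1, 5 and 7 (3.30). The nuclear long RNAs Malat1 (1.42) and Neat1 (1.57), chosen after their values were seen, were at least 2-fold higher as well.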
